A study of Mus musculus with 6 samples.

Results

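Transcripts of the BCL2 family were followed in mouse colon epithelium with and without a deletion of Ube2f. The set holds 10 genes out of 28500 genes in the deposited table. They were chosen by symbol, with earlier results of these data known. They are Bcl2, Bcl2l1 and Mcl1, which encode pro-survival proteins, Bax and Bak1, which encode pore-forming effectors, and Pmaip1, Bbc3, Bcl2l11, Bid and Bik, which encode BH3-only proteins. Each symbol was found once, and all 10 genes passed the filter on low counts.

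Messenger RNA came from 3 Ube2fΔIEC mice, labelled KO, and from 3 Ube2fflox mice, labelled WT. All were labelled as males of 8 weeks that drank normally and received neither DSS (dextran sulfate sodium, used to induce colitis) nor any other drug. The labels do not name the driver of the deletion or the exons removed, and no control with the driver alone was analysed here. Cells had been released from opened colons with EDTA and strained, so that cells other than epithelium could be present. In such bulk RNA, fewer cells of a type and less RNA per cell cannot be told apart.

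The BCL2 family decides whether the outer mitochondrial membrane is opened during apoptosis. BAX and BAK form the pore, BCL2, BCL-XL and MCL1 hold them in check, and BH3-only proteins bind the pro-survival proteins or the effectors and so favour death. NOXA, the product of Pmaip1, binds MCL1 with preference. It is also a known substrate of the ubiquitin ligase built on the cullin CUL5, whose NEDD8 modification is carried out by UBE2F with the RING protein SAG (gene Rnf7). That step acts on the protein, and neither protein levels nor ubiquitin marks were measured here. In the intestine BCL2 and MCL1 are known for survival of crypt cells, and PUMA, the product of Bbc3, for death of crypt cells after irradiation.

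The feature that joins the 3 classes is the BH3 core, a leucine followed 4 residues later by glycine or alanine and aspartate. It is shown as the 30 coding bases around it, because BH3-only proteins bind their partners through it. Pmaip1 is not among the 9 shown. Sequences are the annotated coding strands of GENCODE M21 transcripts (GRCm38), 5′ to 3′, with the codons of the leucine and of the glycine or alanine and aspartate pair in capitals. In each of the 9 coding sequences the pattern, with an acidic residue or glycine next, was found 1 time.
Bcl2: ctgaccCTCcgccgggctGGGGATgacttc
Bcl2l1: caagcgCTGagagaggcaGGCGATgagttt
Mcl1: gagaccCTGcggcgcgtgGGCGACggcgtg
Bax: gagtgtCTCcggcgaattGGAGATgaactg
Bak1: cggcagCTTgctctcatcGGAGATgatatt
Bbc3: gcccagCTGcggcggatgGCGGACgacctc
Bcl2l11: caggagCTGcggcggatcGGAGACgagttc
Bid: agacatCTCgcccaaataGGCGATgagatg
Bik: ttgaggCTGgcctgcatcGGCGATgagatg
Any pair of these segments shared 12 to 21 of the 30 bases, and the pair that shared 21 was Bbc3 and Bcl2l11. Among the 9, Bbc3 was the member with an alanine codon (GCG) in place of a glycine codon.

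Libraries held 55971362 to 77524693 counts. A gene is compared across libraries in CPM, that is in counts normalised to depth by TMM (trimmed mean of M-values), and different genes are compared as the authors' FPKM, which are scaled by length. The targeted gene checks the labels. Ube2f (ENSMUSG00000034343, GRCm38 as all positions here, chromosome 1, 91250304 to 91290337) was at 17.2, 18.0 and 21.0 CPM in Ube2fΔIEC libraries, against 34.0, 42.1 and 32.1 CPM in Ube2fflox libraries, with no overlap. Its log2 fold change was -0.95 (SE 0.13), and its adjusted p over all genes was 0.0923 (quasi-likelihood test of edgeR, Benjamini-Hochberg). The library labelled Ube2fΔIEC replicate 1, a male by its label, stood apart. Xist, transcribed from an inactive X chromosome, was at 494 CPM there and at most 1.33 CPM in the other 5 libraries. Uty, Kdm5d, Eif2s3y and Ddx3y of the Y chromosome had 0 counts in it, so results of the members are also given without it. The 10 epithelial markers summed to 28236 to 34549 CPM in Ube2fΔIEC and 27933 to 33546 CPM in Ube2fflox libraries. The 9 stromal and endothelial markers, 8 of them in the table, summed to at most 6.86 CPM in Ube2fΔIEC and 7.86 CPM in Ube2fflox libraries. The endothelial Cdh5 was at 0 in 4 of the 6 libraries, while Pecam1, also endothelial, had 120 to 315 counts per library.

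Mcl1 dominated the family. Its transcript (ENSMUSG00000038612, chromosome 3, 95658788 to 95663176) was at 104.7, 110.2 and 103 FPKM in Ube2fΔIEC libraries and 95.6, 110.1 and 104 FPKM in Ube2fflox libraries, 51.1 to 54.0% of the family's summed FPKM. Bak1 followed with a mean of 30.9 FPKM over the 6 libraries, then Pmaip1 with 22.6, Bax with 17.9, Bcl2l1 with 9.02, Bbc3 with 5.52 and Bid with 3.78. Bcl2 (1.74 FPKM), Bcl2l11 (1.53 FPKM) and Bik (1.21 FPKM) closed the order. The ranges of Pmaip1 and Bax overlapped, as did those of Bcl2 and Bcl2l11 and of Bcl2l11 and Bik, so the order within these pairs did not exceed the spread between libraries. Every other neighbour in the order was separated in all 6 libraries. Among the pro-survival genes of the set, Mcl1 and Bcl2l1 thus stood far above Bcl2. Pmaip1 was the most abundant BH3-only transcript of the set, also in each single library.

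**Figure D1:**
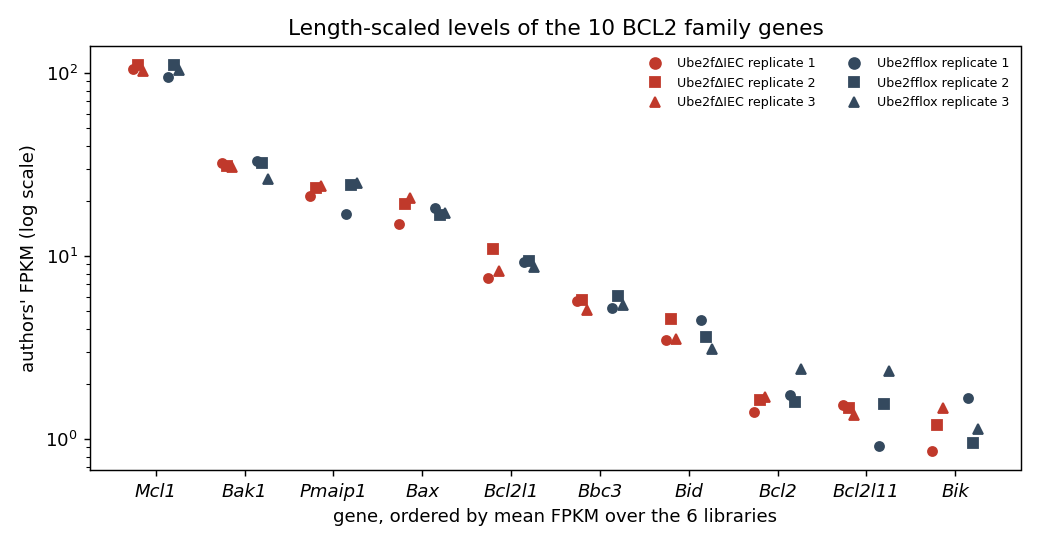
Authors' FPKM (log axis) of the 10 genes, ordered by their mean over the 6 libraries, with each library as a point, Ube2fΔIEC in red left of Ube2fflox in dark blue. Mcl1 sits near 105 FPKM in both genotypes, while Bcl2, Bcl2l11 and Bik lie between 0.860 and 2.41 FPKM with overlapping ranges.

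The make-up of the family by role was close in both genotypes. Pro-survival transcripts made up 57.9 ± 1.19% of the summed FPKM in Ube2fΔIEC and 58.1 ± 0.997% in Ube2fflox libraries (SD, n = 3 each). Effectors made up 24.7 ± 0.857% in Ube2fΔIEC and 24.5 ± 2.68% in Ube2fflox libraries. BH3-only transcripts made up 17.4 ± 0.402% in Ube2fΔIEC and 17.4 ± 1.71% in Ube2fflox libraries. Each difference was smaller than the spread between mice.

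The main comparison asks which family transcripts differed between the genotypes in the unchallenged colon. None of the 10 passed the 0.05 threshold by the quasi-likelihood test of edgeR, adjusted by Benjamini-Hochberg over 17900 genes, where 8 genes (0.0447%) passed. The adjusted p of the members ran from 0.613 to 0.896. At an unadjusted p under 0.05, 0 of the 10 were called, against 8.18% of all genes. DESeq2 also called 0 of the 10 after adjustment, against 1.26% of all genes, and 1 of the 10, Bcl2, at an unadjusted p under 0.05, against 6.01% of all genes. Limma-voom called 0 of the 10 and 0.0279% of all genes. Without Ube2fΔIEC replicate 1, edgeR called 0 members, and 0 at an unadjusted p under 0.05, against 6.09% of all genes. Without Ube2fflox replicate 1 it again called 0 members after adjustment, but Bcl2, Mcl1, Pmaip1 and Bcl2l11, all lower in Ube2fΔIEC, were at an unadjusted p under 0.05, 4 of the 10 against 16.4% of all genes.

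The sizes of the differences were those of an ordinary gene. The median absolute log2 fold change was 0.15 over the members and 0.15 over all genes, with a median SE of 0.14 and 0.17. All 10 log2 fold changes (Ube2fΔIEC over Ube2fflox) were negative, from -0.45 to -0.09 with a median of -0.15, against a median of -0.000183 over all genes. With library totals in place of TMM the median of all genes moved to 0.15, and 5 members were negative and 5 positive (median 0.01). Relative to the median of all genes, all 10 members were lower under both scalings. TMM factors were 1.04 to 1.07 in Ube2fΔIEC and 0.897 to 0.986 in Ube2fflox libraries. Without Ube2fΔIEC replicate 1, 9 of 10 were negative under TMM.

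**Figure D2:**
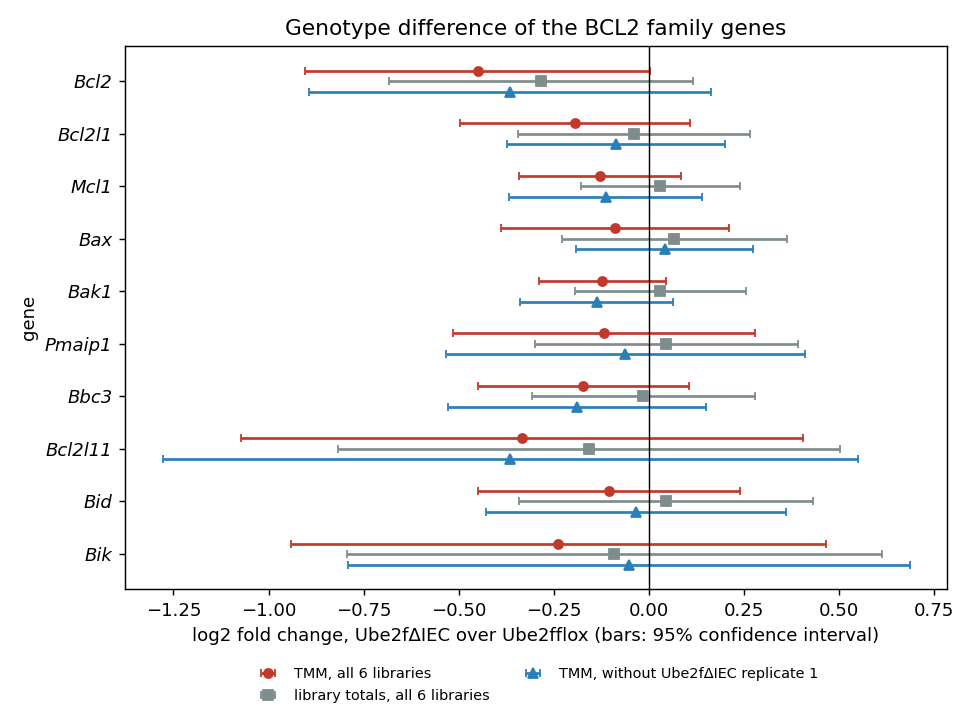
Log2 fold change (Ube2fΔIEC over Ube2fflox) of each gene with its 95% confidence interval, under TMM, under library totals, and under TMM without Ube2fΔIEC replicate 1. All 30 intervals include 0, and Mcl1, Bax, Bak1, Pmaip1 and Bid change sign between TMM and library totals, which move the median of all genes to 0.15.

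Of the pro-survival genes, Bcl2 (ENSMUSG00000057329, chromosome 1, 106538178 to 106714274) came nearest to a difference. It was at 13.3, 15.5 and 16.5 CPM in Ube2fΔIEC libraries, against 17.7, 16.8 and 27.5 CPM in Ube2fflox libraries. All Ube2fΔIEC libraries lay below all Ube2fflox libraries, as for 6.90% of all genes, but the gap was narrow and Ube2fflox replicate 3 stood above the rest. The log2 fold change was -0.45 (SE 0.20, 95% confidence interval -0.90 to 0.003, edgeR quasi-likelihood adjusted p = 0.613). Without Ube2fflox replicate 3 it was -0.19. On the authors' FPKM, 2 of the 3 Ube2fΔIEC libraries lay above the lowest Ube2fflox library, so the separation was absent there.

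Bcl2l1 (ENSMUSG00000007659, chromosome 2, 152780668 to 152831728), which encodes BCL-XL, was at 36.0, 52.1 and 40.1 CPM in Ube2fΔIEC libraries, against 47.2, 49.8 and 49.7 CPM in Ube2fflox libraries. The Ube2fflox libraries lay close together and inside the range of the Ube2fΔIEC libraries, whose lowest value was that of replicate 1. The log2 fold change was -0.19 (SE 0.13). It was -0.09 without Ube2fΔIEC replicate 1 and -0.36 without Ube2fΔIEC replicate 2 (edgeR quasi-likelihood adjusted p = 0.643). Mcl1 was at 369.6, 391 and 372 CPM in Ube2fΔIEC libraries, against 363, 434 and 442 CPM in Ube2fflox libraries. Here 2 Ube2fflox libraries lay above and 1 below all Ube2fΔIEC libraries. The log2 fold change of Mcl1 was -0.13 (SE 0.09) and its 95% confidence interval reached from -0.34 to 0.08, that is 0.789-fold to 1.06-fold. It was -0.22 without Ube2fflox replicate 1 (edgeR quasi-likelihood adjusted p = 0.176) and -0.08 without Ube2fflox replicate 3.

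The effectors differed little. Bak1 (ENSMUSG00000057789, chromosome 17, 27019810 to 27029009) was at 80.2, 77.8 and 77.7 CPM in Ube2fΔIEC libraries, against 88.3, 88.9 and 79.3 CPM in Ube2fflox libraries. It was the member measured most tightly, with a log2 fold change of -0.12 (SE 0.07, interval -0.29 to 0.04). Bax (ENSMUSG00000003873, chromosome 7, 45461697 to 45466898) was at 24.5, 31.5 and 34.6 CPM in Ube2fΔIEC libraries, against 32.2, 30.4 and 33.9 CPM in Ube2fflox libraries. Its lowest value was again Ube2fΔIEC replicate 1, and the log2 fold change of -0.09 (SE 0.13) became 0.04 without it.

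Pmaip1, the gene of the CUL5 substrate NOXA (ENSMUSG00000024521, chromosome 18, 66458533 to 66465565), did not differ beyond the spread between mice. It was at 60.4, 66.7 and 69.7 CPM in Ube2fΔIEC libraries, against 51.2, 77.1 and 85.5 CPM in Ube2fflox libraries. The Ube2fflox mice held both the lowest and the highest values, and the Ube2fΔIEC mice fell between them. Means were 65.6 ± 4.76 CPM in Ube2fΔIEC and 71.2 ± 17.9 CPM in Ube2fflox (SD, n = 3 each), with a log2 fold change of -0.12 (SE 0.17; edgeR quasi-likelihood adjusted p = 0.894). The 95% confidence interval of the ratio reached from 0.700-fold to 1.21-fold, so changes of this transcript within that range remain compatible with the values of 3 mice per genotype. The value turned on single Ube2fflox mice. It was -0.31 without Ube2fflox replicate 1 (edgeR quasi-likelihood adjusted p = 0.155), 0.03 without replicate 3, and -0.06 without Ube2fΔIEC replicate 1.

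The other BH3-only genes did not pass either. Bbc3 (ENSMUSG00000002083, chromosome 7, 16308393 to 16318205) was at 12.5, 12.7 and 11.4 CPM in Ube2fΔIEC libraries, against 12.3, 14.8 and 14.2 CPM in Ube2fflox libraries, a log2 fold change of -0.17 (SE 0.12). Bid (ENSMUSG00000004446, chromosome 6, 120891930 to 120916853), whose product links death receptors to mitochondria once caspases cleave it, was at 12.8, 16.7 and 13.3 CPM in Ube2fΔIEC libraries, against 17.6, 14.7 and 13.6 CPM in Ube2fflox libraries (-0.11, SE 0.15). Both pairs of ranges overlapped. Bik (ENSMUSG00000016758, chromosome 15, 83526862 to 83544634) was the least abundant member, at 1.43, 1.99 and 2.52 CPM in Ube2fΔIEC libraries, against 2.98, 1.78 and 2.24 CPM in Ube2fflox libraries (-0.24, SE 0.31). With 85 counts in its lowest library and a range of values wider than the difference, Bik gave an interval of -0.94 to 0.46. Its log2 fold change was -0.05 without Ube2fΔIEC replicate 1, -0.45 without Ube2fΔIEC replicate 3, -0.02 without Ube2fflox replicate 1 and -0.40 without Ube2fflox replicate 2.

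Bcl2l11 (ENSMUSG00000027381, chromosome 2, 128126038 to 128162547), which encodes BIM, had the widest interval of the 10 members. It was at 12.7, 12.3 and 11.6 CPM in Ube2fΔIEC libraries, against 8.20, 14.5 and 23.6 CPM in Ube2fflox libraries. The Ube2fΔIEC mice were nearly alike (12.2 ± 0.582 CPM, SD, n = 3), while the Ube2fflox mice spread up to a ratio of 2.87 between the highest and the lowest (15.4 ± 7.71 CPM, SD, n = 3). The log2 fold change was -0.33 (SE 0.32, interval -1.07 to 0.40). It was -0.64 without Ube2fflox replicate 1 (edgeR quasi-likelihood adjusted p = 0.176) and 0.10 without Ube2fflox replicate 3. For 7 of the 10 members the SD was larger among Ube2fflox mice. It was larger among Ube2fΔIEC mice for Bcl2l1, Bax and Bid. The same share over all genes was not determined, so the count is not a trait of the family.

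**Figure D3:**
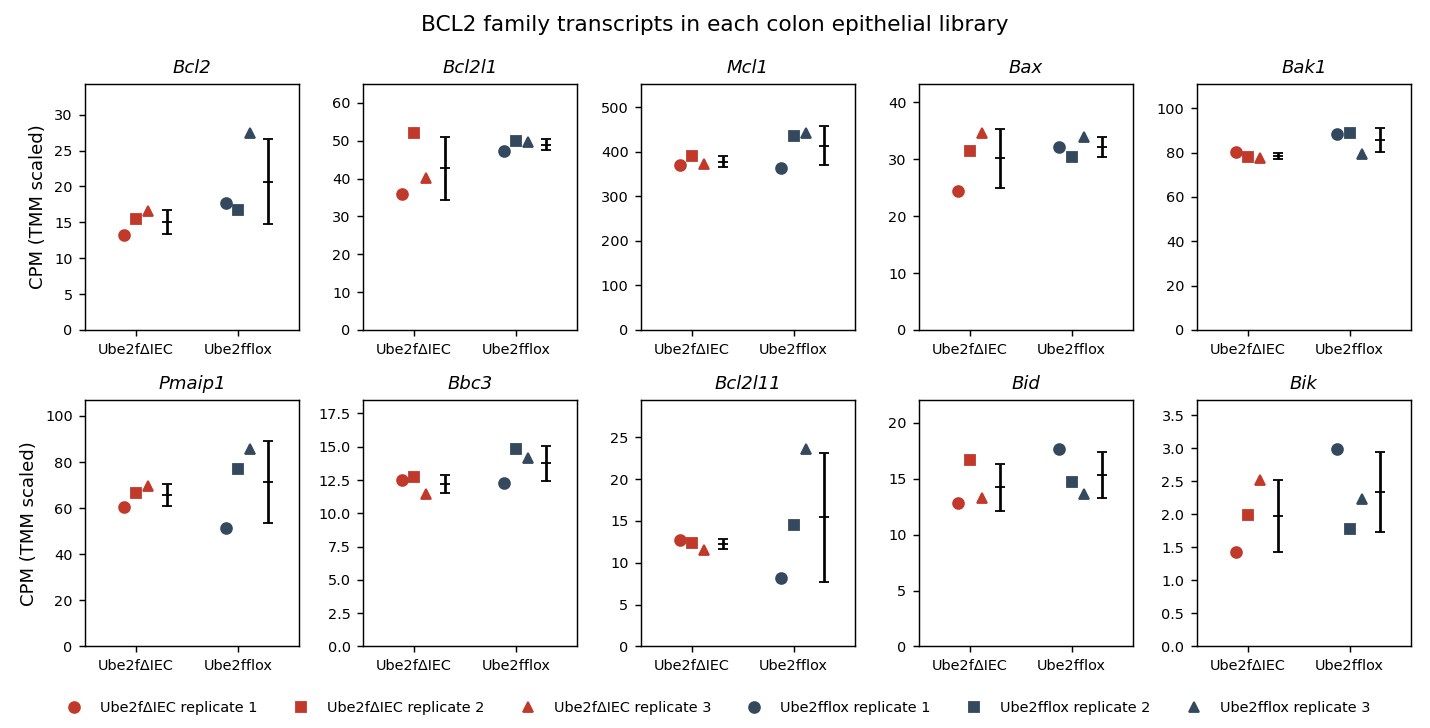
CPM (TMM scaled, axes from 0) of each gene in the 3 Ube2fΔIEC libraries, in red, and the 3 Ube2fflox libraries, in dark blue, with the mean and SD beside the points. The ranges overlap for every gene except Bcl2, and for Pmaip1 and Bcl2l11 the Ube2fflox mice lie on both sides of the Ube2fΔIEC mice.

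Lymphoid markers moved with several members across the Ube2fflox mice. The 10 T and innate lymphoid markers, none of them at 0 in any library, summed to 58.3, 60.8 and 63.0 CPM in Ube2fΔIEC replicates 1 to 3, against 46.1, 83.2 and 149 CPM in Ube2fflox replicates 1 to 3. Pmaip1, Bcl2l11 and Mcl1 followed the same order over the Ube2fflox mice, lowest in replicate 1 and highest in replicate 3. Bcl2 shared the high value of replicate 3 but not the low value of replicate 1. Bid ran the other way over the Ube2fflox mice, at 17.6, 14.7 and 13.6 CPM. Over the 3 Ube2fΔIEC mice Bcl2l11 fell (12.7, 12.3 and 11.6 CPM) while the marker sum rose. Over the 6 libraries, Pearson r of log2 CPM with the log2 sum was highest for Bcl2l11 (0.97), Pmaip1 (0.91), Mcl1 (0.89) and Bcl2 (0.80). The other members had r of 0.69 (Bbc3), 0.35 (Bcl2l1), 0.30 (Bax), -0.12 (Bik), -0.20 (Bak1) and -0.43 (Bid). All 10 markers had lower means in Ube2fΔIEC, with a median log2 fold change of -0.65, and 0 of them passed the edgeR test (1 at an unadjusted p under 0.05, 0 by DESeq2). The 8 myeloid markers summed to 15.7 to 17.1 CPM in Ube2fΔIEC and 16.8 to 29.4 CPM in Ube2fflox libraries, and 2 of them had a higher mean in Ube2fΔIEC. Adgre1 was at 0 in the 3 Ube2fΔIEC libraries and above 0 in the 3 Ube2fflox libraries, at up to 67 counts. The 6 B and plasma cell markers summed to 2.40 to 3.56 CPM in Ube2fΔIEC and 0.916 to 5.06 CPM in Ube2fflox libraries. The part of such cells in the values of the members was not tested.

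**Figure D4:**
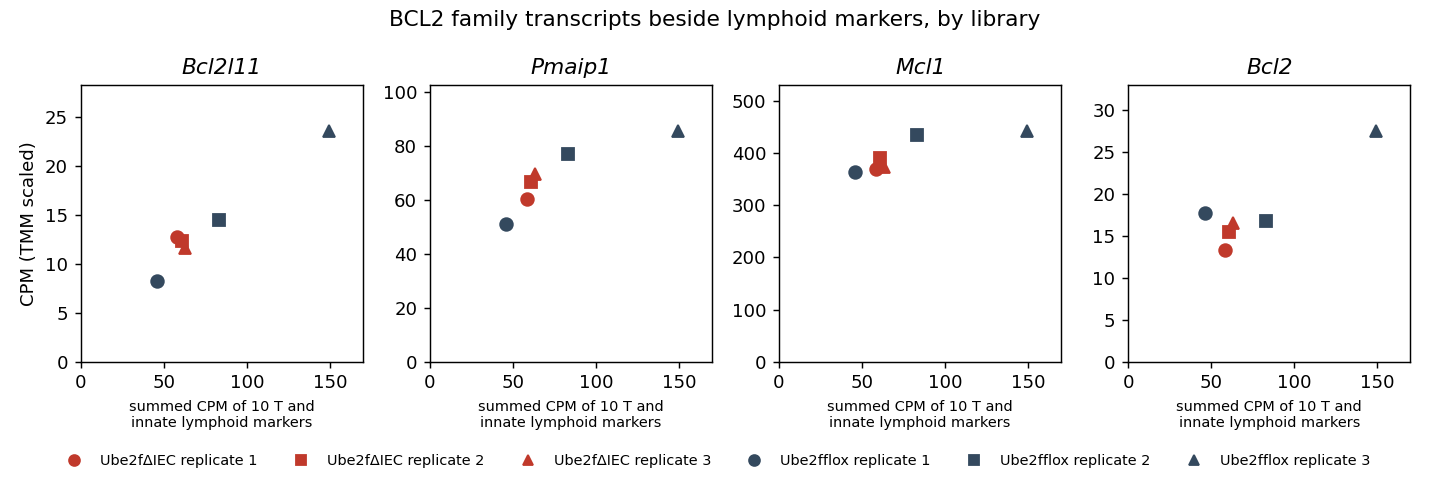
CPM of Bcl2l11, Pmaip1, Mcl1 and Bcl2 (vertical axes, from 0) against the summed CPM of 10 T and innate lymphoid markers (horizontal axis), 1 point per library, Ube2fΔIEC in red and Ube2fflox in dark blue. Ube2fflox replicate 3 lies farthest right at 149 CPM and is the highest library for all 4 genes. These are the 4 of the 10 members with the highest Pearson r with this sum.

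Markers of cycling crypt cells had higher means in Ube2fΔIEC libraries for 7 of 8 genes. The 8 cycling crypt markers summed to 463.5, 454 and 350.4 CPM in Ube2fΔIEC replicates 1 to 3, against 419.6, 257 and 229 CPM in Ube2fflox replicates 1 to 3. Their median log2 fold change was 0.58. By edgeR 0 of the 8 passed and 4 were at an unadjusted p under 0.05, against 8.18% of all genes. Of these 4, Mcm3, Mcm5 and Rrm2, genes of DNA replication, were higher in Ube2fΔIEC and the stem cell marker Lgr5 was lower. This list was not tested without Ube2fΔIEC replicate 1, which had its highest sum. DESeq2 called Mcm3, Mcm5 and Rrm2, 3 of the 8, against 1.26% of all genes. The order of the sums over the Ube2fflox mice was the reverse of that of Pmaip1, Bcl2l11 and Mcl1, and the part of such cells in those values was not tested.

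Ratios between members of a library do not depend on the scaling between libraries. The log2 ratio of Pmaip1 to Mcl1 counts was -2.61, -2.55 and -2.42 in Ube2fΔIEC libraries, against -2.83, -2.49 and -2.37 in Ube2fflox libraries. The Ube2fΔIEC values lay within the range of the Ube2fflox values, and the difference was 0.04 (exact two-sided permutation test, p = 0.9). With 3 mice per genotype this exact permutation test cannot go below p = 0.1. The log2 ratio of Bak1 to Mcl1 was -2.20, -2.33 and -2.26 in Ube2fΔIEC libraries, against -2.04, -2.29 and -2.48 in Ube2fflox libraries, and differed by 0.004 (exact two-sided permutation test, p = 1). The log2 ratio of Bax to Bcl2 was 0.88, 1.03 and 1.07 in Ube2fΔIEC libraries, against 0.86, 0.86 and 0.30 in Ube2fflox libraries. All Ube2fΔIEC values lay above all Ube2fflox values, by a margin that was small except for Ube2fflox replicate 3. The difference was 0.32 (exact two-sided permutation test, p = 0.1, the smallest possible), and 0.13 without Ube2fflox replicate 3. Adjusted by Benjamini-Hochberg over the 3 ratios, the exact p of Bax to Bcl2 was 0.3 and that of the others 1.

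**Figure D5:**
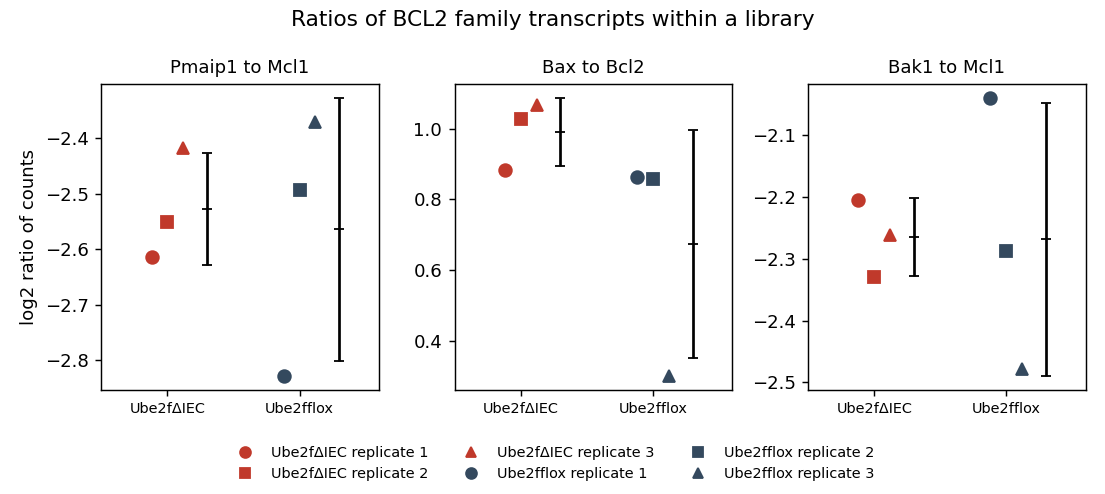
Log2 ratio of counts within each library for Pmaip1 to Mcl1, Bax to Bcl2 and Bak1 to Mcl1, with Ube2fΔIEC left of Ube2fflox and the mean and SD beside the points. The genotypes overlap for both ratios to Mcl1, and for Bax to Bcl2 the 3 Ube2fΔIEC libraries, at 0.88 to 1.07, lie above the 3 Ube2fflox libraries, at 0.30 to 0.86.

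Other genes of the pathway were read from lists drawn up by function, with earlier results of these data known. Of 14 further BCL2 family genes in the table, 11 were measured well enough to test. None of the 11 passed the edgeR test (0 at an unadjusted p under 0.05, 0 by DESeq2), with a median log2 fold change of -0.10. The 2 of smallest p were Bnip3, a hypoxia-induced mitophagy receptor, at 6.55 ± 0.704 CPM in Ube2fΔIEC and 9.33 ± 3.05 CPM in Ube2fflox (SD, n = 3 each), and the BH3-only gene Bmf, at 4.19 ± 1.18 CPM in Ube2fΔIEC and 6.61 ± 2.79 CPM in Ube2fflox. Both differences were smaller than the SD of the Ube2fflox mice. For Bnip3 all Ube2fΔIEC libraries lay below all Ube2fflox libraries, as for 6.90% of all genes, while for Bmf the ranges overlapped. By DESeq2 both genes were at an unadjusted p under 0.05, against 6.01% of all genes.

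Among 21 apoptosome, caspase and IAP (inhibitor of apoptosis) genes, 0 passed the edgeR test and 0 were called by DESeq2. At an unadjusted p under 0.05 by edgeR there were 3 of the 21, all higher in Ube2fΔIEC, against 8.18% of all genes. The median log2 fold change of the 21 was 0.01. Casp2, an initiator caspase, was at 96.2 ± 10.8 CPM in Ube2fΔIEC and 79.98 ± 1.43 CPM in Ube2fflox (log2 fold change 0.27, SE 0.09). Dffb, the nuclease that cuts DNA between nucleosomes, was at 17.8 ± 2.46 CPM in Ube2fΔIEC and 13.9 ± 1.41 CPM in Ube2fflox (0.36, SE 0.14). Of 13 death receptor genes 0 passed the edgeR test (1 at an unadjusted p under 0.05; median log2 fold change -0.03). That gene was Tnfrsf10b, the TRAIL receptor, at 60.7 ± 3.66 CPM in Ube2fΔIEC and 43.3 ± 3.57 CPM in Ube2fflox (0.49, SE 0.09; edgeR quasi-likelihood adjusted p = 0.176), which DESeq2 called. It was the 1 of the 13 that DESeq2 called, against 1.26% of all genes. Fas, the next by p, had a log2 fold change of -0.36 (SE 0.21).

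Neither p53 and its targets nor transcription factors of the family gave a call with edgeR. Of 18 genes of p53 and its targets 0 passed the edgeR test, and their median log2 fold change was -0.03. At an unadjusted p under 0.05 by edgeR there were 4 of the 18, against 8.18% of all genes. DESeq2 called 1 of the 18, against 1.26% of all genes. Of the 4, 3 were lower in Ube2fΔIEC and 1 was higher. The higher one was Trp53, which encodes p53, with a log2 fold change of 0.18 (SE 0.07). Gadd45a, a growth arrest gene, was at 57.2 ± 3.93 CPM in Ube2fΔIEC and 80.6 ± 11.2 CPM in Ube2fflox (log2 fold change -0.50, SE 0.11), and was the gene that DESeq2 called. Sesn2, a stress-induced inhibitor of mTORC1, had a log2 fold change of -0.33 (SE 0.10). Of 14 transcription factors known to act on BCL2 family genes 0 passed the edgeR test (3 at an unadjusted p under 0.05, 1 by DESeq2). Their median log2 fold change was -0.06. They were led by Bcl6, a transcriptional repressor, at 5.51 ± 1.26 CPM in Ube2fΔIEC and 12.98 ± 2.54 CPM in Ube2fflox (-1.23, SE 0.22), and E2f1, an S-phase activator, at 0.60 (SE 0.16). Bcl6 was the one that DESeq2 called.

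Of 16 genes that act on turnover of NOXA and MCL1, 0 passed with edgeR (3 at an unadjusted p under 0.05; median log2 fold change 0.03), and DESeq2 called 1, Ube2f itself. Rnf7, the RING partner of CUL5 in NOXA turnover, was at 29.4 ± 1.47 CPM in Ube2fΔIEC and 19.5 ± 7.35 CPM in Ube2fflox (0.59, SE 0.23; edgeR quasi-likelihood adjusted p = 0.564). The share of genes at an unadjusted p under 0.05 among all genes tested, 8.18%, is the background against which these counts stand. For the DESeq2 calls that share is 1.26%.

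The genes whose pattern was most like that of Pmaip1 were sought among 9103 other genes with a mean of at least 10 CPM. They were Gabbr1, a GABA-B receptor subunit (Pearson r of log2 CPM 0.990), Pnrc1, a nuclear receptor coactivator (0.988), and Marcksl1, a MARCKS-like actin-binding protein (0.986), each over 6 libraries and with the same order of libraries as Pmaip1. In all, 162 of the 9103 genes exceeded 0.9. These values describe the 6 libraries, since the genes were picked for them, and the sums of lymphoid and cycling crypt markers varied over the same libraries.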

How the data were processed

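Colon epithelial RNA of 3 Ube2fΔIEC and 3 Ube2fflox mice, each labelled as its own animal, was analysed from 1 deposited table with counts and FPKM per gene. The counts are whole numbers, as deposited. The FPKM were scaled by length and library by the authors. Tools named in the submitters' processing notes include HISAT2 2.2.1, StringTie 2.1.6 and cutadapt 1.9, with edgeR, DESeq2 and the build mm10. How reads were counted, and whether by strand, was not stated, so overlapping and antisense genes could not be told apart. The table's coordinates matched GENCODE M21 (GRCm38) for 0 of 10 members, and printed positions are the GENCODE M21 ones of each gene ID.

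Genes were kept by filterByExpr (17900 of 28500), scaled by TMM and tested, two-sided, by the quasi-likelihood test of edgeR 4.0.16 (R 4.3.3) on genotype alone, with Benjamini-Hochberg adjustment over all genes and a threshold of 0.05. SEs are the log2 fold change over the square root of F, and confidence intervals are at 95%. Alternatives were DESeq2 1.42.0, limma 3.58.1 (voom, and log2(FPKM + 0.1)), other scalings, no filter, a replicate block and leaving out each library. The tests were checked on simulated data. The table held 0 other sample columns.

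The labels give both genotypes the replicate numbers 1 to 3 but tie no number to a litter or day. Members and lists were chosen with earlier results of these data known. Named pathway genes are the called ones or else the 2 of smallest p per list, and pattern genes are the 3 of highest r.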

Additional observations from a re-analysis of the deposited data

How the results depend on the processing

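The number of members called by adjusted p was 0 with edgeR and under each of the 13 alternatives, at a smallest adjusted p of 0.155. Members at an unadjusted p under 0.05 numbered at most 4, without Ube2fflox replicate 1, all 4 lower in Ube2fΔIEC, where 16.4% of all genes were at such a p. Correlations of same-numbered deviations were 0.115, -0.046 and 0.112, and cannot settle whether the replicate numbers pair the mice by litter or day. With the number as a replicate block 0 members and 10 genes in all were called. Bcl2 was then the 1 member at an unadjusted p under 0.05 by edgeR, as were 1658 of 17900 genes. SEs moved both ways under the block, from 0.20 to 0.14 for Bcl2 and from 0.31 to 0.34 for Bik. For the ratios the block leaves the differences at 0.04, 0.32 and 0.004 by arithmetic, since each number occurs once per genotype. Only the test changes, to an exact sign-flip test whose smallest p is 0.25.

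No log2 fold change of a member passed in any setting. With library totals Mcl1 was at 0.030, Bax at 0.066, Bak1 at 0.030, Pmaip1 at 0.046 and Bid at 0.044. With log2 FPKM they were at 0.039, 0.059, 0.042, 0.074 and 0.054. Both scalings moved the median of all genes to 0.15, and all 10 members stayed below that median. Leaving out 1 library gave ranges of -0.20 to 0.041 for Bax, -0.31 to 0.031 for Pmaip1, -0.64 to 0.10 for Bcl2l11, -0.23 to 0.0039 for Bid, -0.58 to -0.19 for Bcl2, -0.36 to -0.09 for Bcl2l1, -0.22 to -0.08 for Mcl1, -0.18 to -0.09 for Bak1, -0.25 to -0.12 for Bbc3, -0.45 to -0.02 for Bik, -0.10 to 0.13 for the ratio of Pmaip1 to Mcl1 and -0.10 to 0.12 for that of Bak1 to Mcl1. The ratio of Bax to Bcl2 ranged from 0.13 to 0.41 in the same way. The cause was not tested.

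Over all genes edgeR called 8, DESeq2 234, limma-voom 5, limma on FPKM 5 and library totals 18, and 0 to 90 with 1 library left out. Of the pathway lists, edgeR called 1 turnover gene and 1 transcription factor without Ube2fflox replicate 1, and DESeq2 called 1 gene in each of 4 lists. With 3 mice per genotype the SE of the members ran from 0.07 to 0.32, which sets the size of difference that could be detected.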
